A study of Mus musculus with 12 samples.

Results

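The 36 genes described here are transcripts of macrophages and monocytes, and they were measured in RNA that was extracted from CD4+ T cells of mice. The genes were chosen by symbol from a fixed list, and all 36 were found among the 35492 gene symbols of the deposited tables. This list and the marker lists used below were chosen with earlier results of these data known, so counts over them are a description. There were 12 libraries in 4 groups of 3, all from C57BL/6J mice aged 7 weeks. Tfh_tumour libraries were made from CD4+ CXCR5+ PD1+ cells, surface markers by which T follicular helper (Tfh) cells are sorted, taken from MC38 tumours, which are grown from a mouse colon carcinoma line. Tfh_OTII libraries were made from naive T cells of OT-II mice, which carry a transgenic T cell receptor for an ovalbumin peptide, after culture with IL-6 and IL-21 at 50 ng/ml each and antibodies at 10 µg/ml against IL-4, IFNγ and TGFβ. Tfh_WT libraries had the same culture but wild-type cells. Th1_WT libraries were made from wild-type cells, also naive, which were given IL-12 at 10 ng/ml and an antibody against IL-4 at 10 µg/ml. The cultures were started from spleen and lymph node on plates coated with CD3 and CD28 antibodies. Titles give 48 h of culture for Tfh_OTII and 24 h for Tfh_WT and Th1_WT, while the protocol text gives 48 h for all of them. Each library used RNA of 300000 CD4+ cells, and whether the replicates are separate animals or cultures is not stated, so p-values reflect how much these libraries vary, and that variation may be technical.

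Monocytes circulate in blood and enter inflamed tissue and tumours, where they can mature into macrophages. Both depend on the transcription factor PU.1 and, for most macrophages, on the receptor for colony-stimulating factor 1. They recognise microbes and dying cells through surface lectins and scavenger receptors, digest what they engulf in lysosomes, and release inflammatory cytokines. T cells in the tumour lie among such cells, and several lysosomal proteases of the list are also made by T cells themselves.

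Values are in TPM, a share of each library's transcripts that is corrected for their length, so that levels of different genes can be compared within a library. Sequencing depth is unknown because TPM carry no counts. T cell genes were present in every library, with 186, 307 and 245 TPM of Cd3e, a chain of the T cell receptor complex, in Tfh_tumour replicates 1, 2 and 3, and with 37.3 to 361 TPM in the 9 cultures. Cd4, the co-receptor of the sort, had 120.3, 173 and 132 TPM in Tfh_tumour and 59.6 to 231 TPM in the cultures, and Ptprc, the leukocyte antigen CD45, had 497, 837 and 526 TPM in Tfh_tumour and 237 to 588 TPM in the cultures. Cxcr5 and Pdcd1, the genes of the sort, had 11 to 16.3 TPM and 26.2 to 40.1 TPM in the Tfh_tumour libraries. In the cultures they had 0.872 to 7.34 TPM and 3.29 to 21.4 TPM. Th1_WT libraries listed 19.5% to 41.4% of all symbols at 0, and their median-of-ratios size factors were 0.472 to 0.668, against 1.06 to 1.44 in the other 9 libraries. Comparisons with Th1_WT are therefore given as deposited and after scaling by these factors. Scaling took the median log2 fold change of all genes tested in Tfh_tumour against Th1_WT to 0.11, against 0.87 as deposited.

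The summed level of the 36 genes was 603, 6334 and 1539 TPM in Tfh_tumour replicates 1, 2 and 3. It was 219, 180.1 and 155 TPM in Tfh_OTII, 212, 193 and 243 TPM in Tfh_WT, and 105, 114 and 166 TPM in Th1_WT. Every Tfh_tumour library lay above all 9 cultures, and Tfh_tumour replicate 2 carried 10.5 times the sum of replicate 1 and 4.12 times that of replicate 3. As a share of the summed TPM of 15 T cell genes, a measure that does not depend on library scaling, the 36 genes came to 23.3%, 148% and 56.2% in Tfh_tumour replicates 1, 2 and 3. The same share was 4.43% to 6.89% in Tfh_OTII, 6.29% to 7.59% in Tfh_WT and 8.28% to 11.1% in Th1_WT. The T cell genes themselves summed to 2592, 4268 and 2738 TPM in Tfh_tumour and to 2829 to 3505 TPM in the 6 Tfh cultures, and 0 of 15 were called in Tfh_tumour against Tfh_WT or Tfh_OTII. In Th1_WT they summed to 945 to 2004 TPM, so its share of the 36 genes rests on a smaller T cell sum. Against Th1_WT, 10 of 15 were called higher in Tfh_tumour as deposited (background 49.3%) and 1 after scaling (10.9%). In RNA from many cells, more cells of a type and more RNA per cell cannot be told apart.

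**Figure D1:**
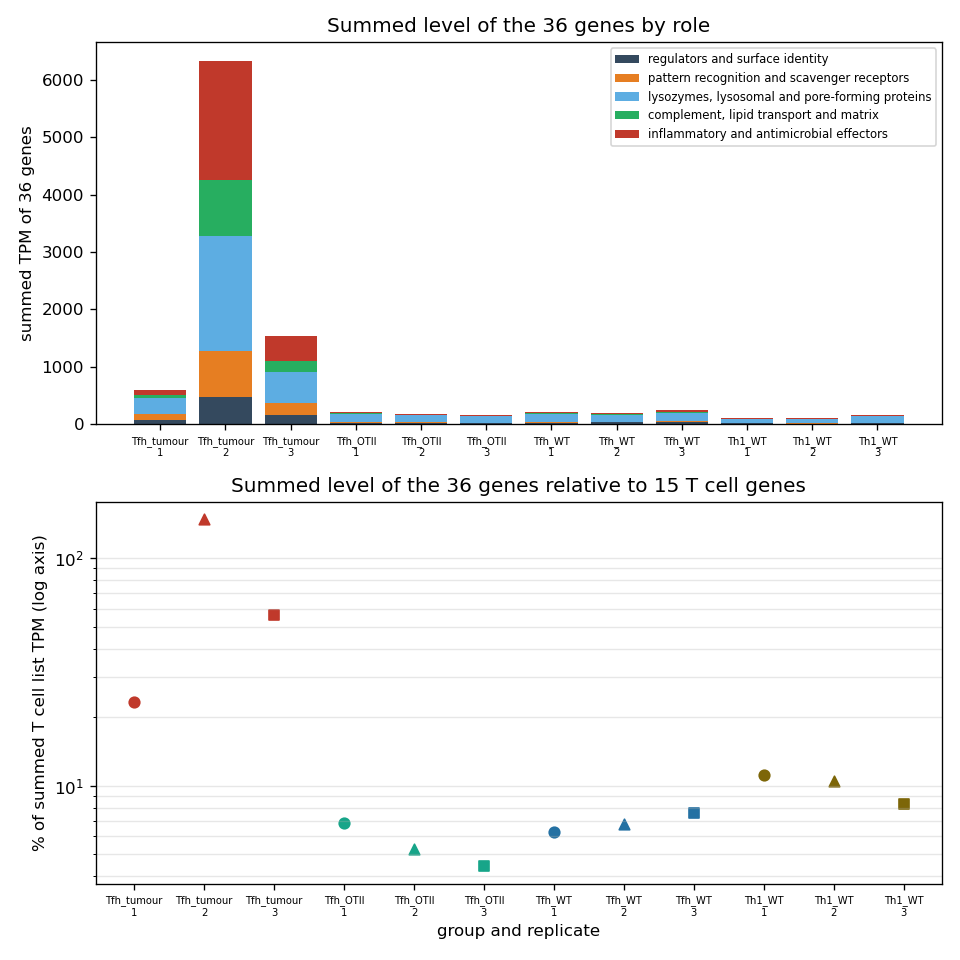
Upper panel, summed TPM of the 36 genes in each library (bars from 0), stacked by the role of the genes; lower panel, the same sum as a percentage of the summed TPM of 15 T cell genes (points, log axis). Tfh_tumour replicate 2 reached 6334 TPM and 148%, and no culture exceeded 243 TPM or 11.1%.

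The make-up of the sum differed between tumour cells and cultures. Lysozymes, lysosomal and pore-forming proteins made up 47.6%, 31.6% and 34.5% of it in Tfh_tumour replicates 1, 2 and 3 and 58.5% to 76.6% in the cultures. Inflammatory and antimicrobial effectors made up 16.6%, 32.9% and 27.9% in Tfh_tumour and 4.79% to 13.2% in the cultures. Pattern recognition and scavenger receptors made up 12.8% to 17.5% in Tfh_tumour and 4.01% to 8.59% in the cultures. These 3 shares did not overlap between Tfh_tumour and the cultures. The gene with the highest level was the cathepsin gene Ctss in all 6 Tfh cultures and in Tfh_tumour replicates 1 and 3, the cathepsin gene Ctsz in the 3 Th1_WT libraries, and the cytokine gene Il1b, at 994 TPM, in Tfh_tumour replicate 2. In that library 16 of the 36 genes were at 100 TPM or more, while 1 was in replicate 1 and 4 were in replicate 3. No culture held any of the 36 at that level.

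Genes were tested with limma on log2(TPM + 1), and a gene was called at an adjusted p under 0.05 over the 23308 genes whose mean reached 1 TPM in any group. All 36 passed that filter, but Csf1r, Adgre1, Cd14, Mrc1, Lyz1, C1qa and C1qb passed it through Tfh_tumour alone, and C1qa and C1qb through replicate 2 of it, so counts over the 36 are a description. In Tfh_tumour against Tfh_WT, 19 of 36 were called higher, where 1.15% of all tested genes were. The median log2 fold change of the 36 was 2.50, against 0.10 over all genes. In Tfh_tumour against Tfh_OTII, 26 of 36 were called higher (background 7.97%), with a median of 2.82 and 0.06 over all genes. In Tfh_tumour against Th1_WT, 35 were called higher as deposited, where 49.3% of all genes were, and 26 after scaling, where 10.9% were. With scaling, 23 were called against Tfh_WT (1.17%) and 26 against Tfh_OTII (7.49%). As deposited, none of the 36 was called lower against Tfh_WT, Tfh_OTII or Th1_WT, where 0.944%, 7.29% and 0.601% of all genes were. These comparisons share the Tfh_tumour libraries and are not independent of each other.

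Without Tfh_tumour replicate 2, 34 of the genes could be tested. Then 15 were called higher against Tfh_WT (background 0.639%), 24 against Tfh_OTII (5.45%) and 30 against Th1_WT (40.8%). With scaling as well, 33 could be tested, and 15 were called against Tfh_WT (0.638%), 25 against Tfh_OTII (5.26%) and 22 against Th1_WT (6.98%). The count against Tfh_WT also moved with single other libraries, to 29 without Tfh_tumour replicate 1, 10 without Tfh_tumour replicate 3, and 8, 8 and 11 without Tfh_WT replicates 1, 2 and 3. It was 9 when only the 2 groups were fitted. The shares of all genes called in these fits were not computed, so whether calls over all genes moved alike is not known. In raw TPM, all 3 Tfh_tumour libraries lay above all 3 libraries of Tfh_WT for 31 of 36 genes (background 13.4%), of Tfh_OTII for 30 (16.8%) and of Th1_WT for 35 (54.9%). The exceptions were Mrc1, Trem2, Plbd1, Ctsb and C1qc against Tfh_WT, Mrc1, Trem2, Lyz1, Plbd1, C1qa and C1qc against Tfh_OTII, and Ctsz against Th1_WT.

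**Figure D2:**
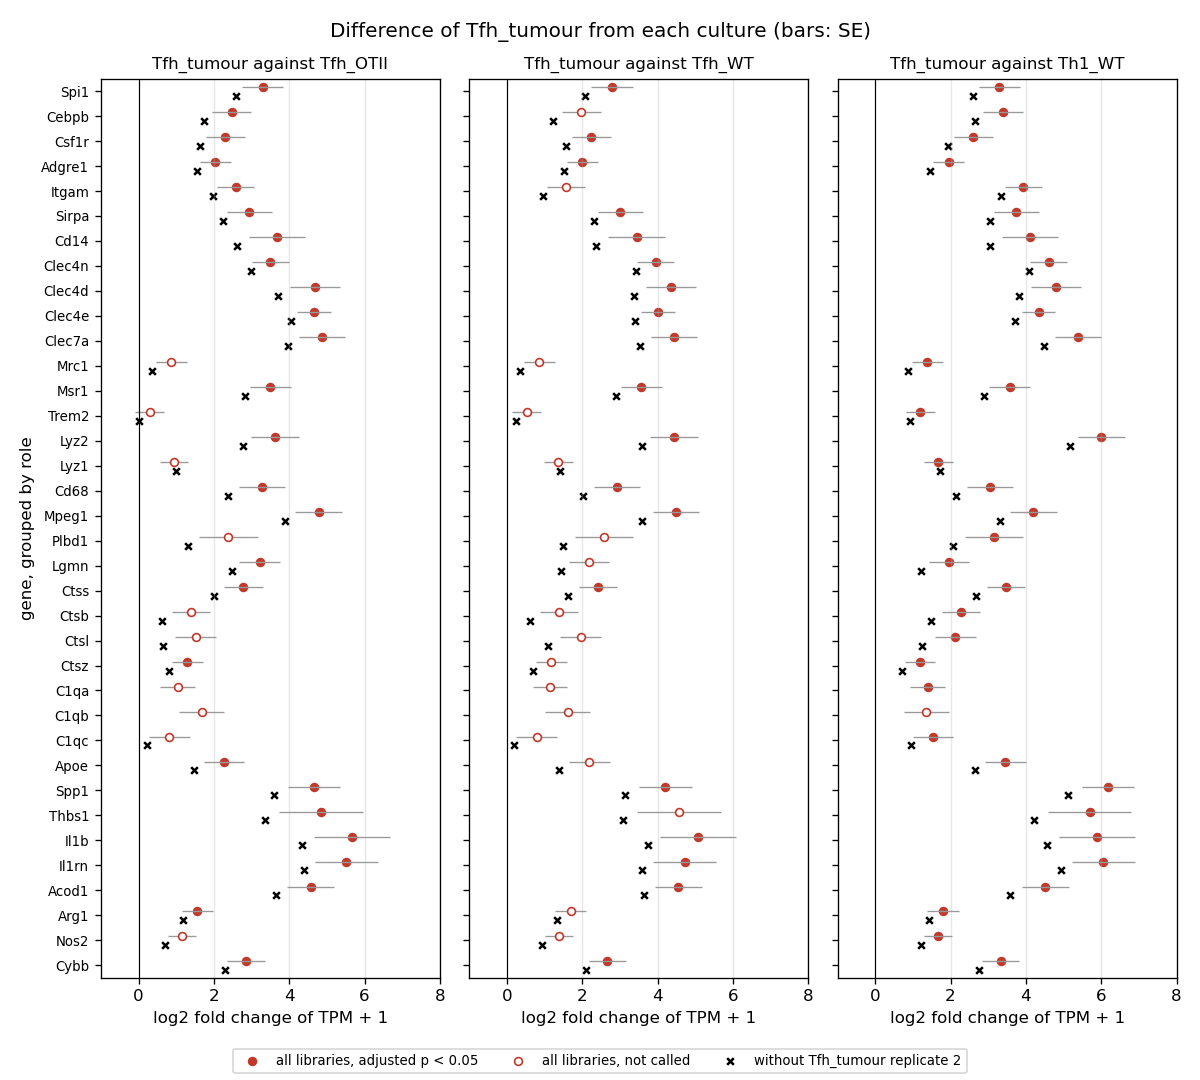
Log2 fold change of TPM + 1 for each of the 36 genes (rows) in Tfh_tumour against Tfh_OTII, Tfh_WT and Th1_WT (panels), with limma's SE as bars; filled points were called, open points were not, and crosses are values without Tfh_tumour replicate 2. All points from the 12 libraries lie above 0, and in Tfh_tumour against Tfh_WT 19 are filled.

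Of the 6 regulators and surface molecules of the lineage, 4 were called higher in Tfh_tumour against Tfh_WT (background 1.15%). All 6 were called higher against Tfh_OTII (7.97% as deposited, 7.49% after scaling) and against Th1_WT (49.3% and 10.9%) under both scalings. Spi1, which encodes PU.1 (chr2, 91082390 to 91115756, plus strand, GRCm38), had 10.7, 66.6 and 19.9 TPM in Tfh_tumour replicates 1, 2 and 3. It had 1.05 to 2.22 TPM in Tfh_OTII, 1.78 to 5.3 TPM in Tfh_WT and 0.654 to 2.38 TPM in Th1_WT, so that Tfh_tumour did not overlap the cultures. Its log2 fold change was 2.79 ± 0.55 against Tfh_WT (SE; limma adjusted p = 0.0215), 3.29 ± 0.55 against Tfh_OTII (0.00175) and 3.29 ± 0.55 against Th1_WT (0.000487; 2.40 ± 0.49 after scaling). The call against Tfh_WT was lost without Tfh_tumour replicate 3 (0.0585) and without Tfh_WT replicates 1 (0.112) and 2 (0.125). Cebpb, the C/EBPβ factor of inflammatory myeloid genes, had 31.8, 226 and 71 TPM in Tfh_tumour. It was also present in the cultures, at 13.4 to 14.1 TPM in Tfh_OTII, 17.2 to 23.5 TPM in Tfh_WT and 3.81 to 9.26 TPM in Th1_WT, and was called against Tfh_OTII (2.47 ± 0.52, adjusted p = 0.0071) and not against Tfh_WT (1.98 ± 0.52, 0.0754).

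Csf1r, the receptor for colony-stimulating factor 1, had 2.51, 21.9 and 7.74 TPM in Tfh_tumour replicates 1, 2 and 3 and 0.204 to 1.62 TPM in the cultures. Adgre1, which encodes the macrophage antigen F4/80, had 2.2, 9.96 and 4.03 TPM in Tfh_tumour and 0 to 0.875 TPM in the cultures. Sirpa, the inhibitory receptor for CD47, had 9.02, 72.4 and 29.1 TPM in Tfh_tumour and 0.553 to 4.84 TPM in the cultures. For these 3 genes no culture reached the lowest Tfh_tumour library. They were called in Tfh_tumour against Tfh_WT, with log2 fold changes of 2.25 ± 0.52, 2.00 ± 0.41 and 3.01 ± 0.60, and limma called them against Tfh_OTII and Th1_WT too. Each call against Tfh_WT was lost when any 1 of the 6 libraries other than Tfh_tumour replicate 1 was left out (limma adjusted p = 0.0534 to 0.178). Itgam, which encodes CD11b, an integrin chain of monocytes and neutrophils, had 15, 72.2 and 26.5 TPM in Tfh_tumour. The Tfh_OTII libraries had 2 to 6.39 TPM of it, the Tfh_WT libraries 7.12 to 12.5 TPM and the Th1_WT libraries 0.535 to 1.54 TPM. It was called against Tfh_OTII and Th1_WT and not against Tfh_WT (1.57 ± 0.50, adjusted p = 0.141). Of its 31-base stretches, 68.3% also occur in transcripts of other annotated genes, so its level is uncertain.

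PU.1 binds a short purine-rich core, GAGGAA, and promoters of the 36 genes were searched for it as a description. Whether such matches relate to the levels of the genes was not tested. RefSeq promoters (GRCm38.p6, 250 bases before to 50 bases after each start, both strands) were matched for 24 of the 36 genes. The core was found in 14 of the 24 (58.3%) and in 31.25% of 27025 genes. The C/EBP letters TTGCNNAA were found in 6 of 24 (25%) and in 12.2% of all genes, the AP-1 letters TGANTCA in 4 of 24 (16.7%) and in 8.97%, and the letters TATAAA in 10 of 24 (41.7%) and in 15.7%. A match describes the letters of a promoter and does not show that a factor was bound there. The sequences below are the 250 bases before the start for the 4 genes that hold the core there and had the highest fold changes among genes called in all 12 fits named further on, followed by Il1b, the gene with the highest fold change among those without it. Capitals mark the PU.1 core, on either strand, and TATAAA.
Acod1 (chr14:103046762-103047011, plus strand): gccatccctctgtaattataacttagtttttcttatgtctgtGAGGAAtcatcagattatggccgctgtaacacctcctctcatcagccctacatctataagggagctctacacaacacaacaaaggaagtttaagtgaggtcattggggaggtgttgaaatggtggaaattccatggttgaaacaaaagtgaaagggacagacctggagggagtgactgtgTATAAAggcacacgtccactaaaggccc
Clec7a (chr6:129472780-129473029, minus strand): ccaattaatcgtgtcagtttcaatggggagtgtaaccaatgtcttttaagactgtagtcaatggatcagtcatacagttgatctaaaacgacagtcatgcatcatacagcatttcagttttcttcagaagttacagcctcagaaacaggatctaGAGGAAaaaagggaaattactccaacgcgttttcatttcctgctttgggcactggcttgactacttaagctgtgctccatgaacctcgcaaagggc
Clec4d (chr6:123261857-123262106, plus strand): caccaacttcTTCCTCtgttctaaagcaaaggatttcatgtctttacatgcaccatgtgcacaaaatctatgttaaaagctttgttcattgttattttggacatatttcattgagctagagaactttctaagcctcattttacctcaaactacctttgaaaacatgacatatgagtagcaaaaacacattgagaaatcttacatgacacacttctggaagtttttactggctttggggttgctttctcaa
Spp1 (chr5:104434861-104435110, plus strand): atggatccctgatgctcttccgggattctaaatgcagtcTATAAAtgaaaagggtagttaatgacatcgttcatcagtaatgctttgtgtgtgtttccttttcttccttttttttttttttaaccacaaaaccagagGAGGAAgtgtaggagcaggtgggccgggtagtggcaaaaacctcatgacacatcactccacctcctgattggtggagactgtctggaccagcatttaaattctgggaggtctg
Il1b (chr2:129371140-129371389, minus strand): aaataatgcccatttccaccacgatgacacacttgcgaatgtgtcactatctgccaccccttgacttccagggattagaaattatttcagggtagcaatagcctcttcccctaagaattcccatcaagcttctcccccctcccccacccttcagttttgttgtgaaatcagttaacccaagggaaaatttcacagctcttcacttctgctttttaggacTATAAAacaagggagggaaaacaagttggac
The core starts at position -208 in Acod1, -96 in Clec7a, -240 in Clec4d, where it is on the opposite strand, and -113 in Spp1, counted back from the start. TATAAA starts at -28 in Acod1, -211 in Spp1 and -31 in Il1b. The matches do not overlap each other.

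**Figure D3:**
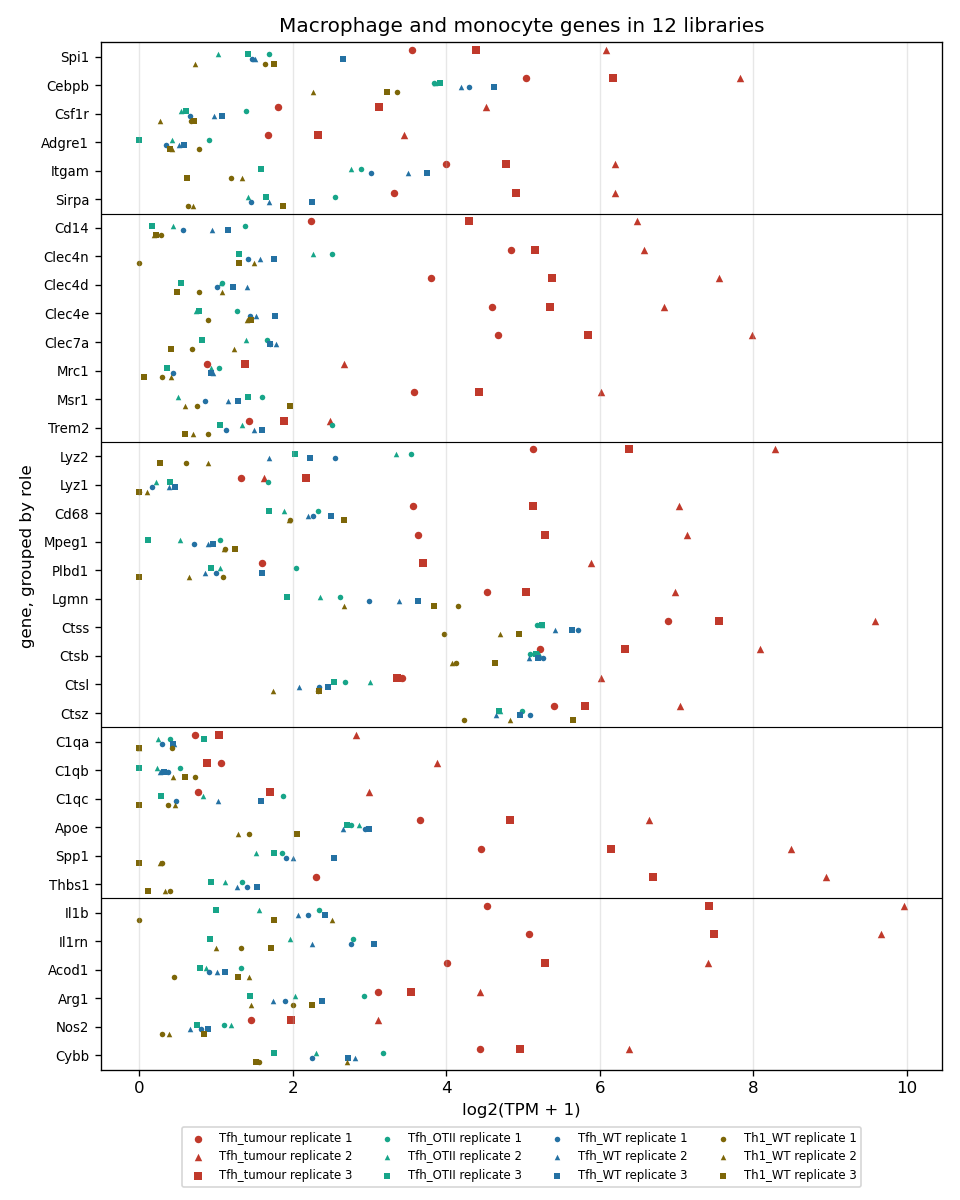
log2(TPM + 1) of the 36 genes (rows, grouped by role with lines between the groups) in the 12 libraries; color gives the group and marker shape the replicate. Tfh_tumour replicate 2 (triangles) is the highest Tfh_tumour library for 35 of the 36 genes.

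Of 8 receptors for microbes, lipids and sugars, 6 were called higher in Tfh_tumour against Tfh_WT (background 1.15%) and 6 against Tfh_OTII (7.97%). Against Th1_WT, 8 were called higher as deposited (49.3%) and 6 after scaling (10.9%). The C-type lectin genes Clec4n, Clec4d and Clec4e, which encode Dectin-2, MCL and Mincle, lie next to one another on chromosome 6 between 123229843 and 123289870 (GRCm38). Clec4n had 27.8, 94.5 and 34.8 TPM in Tfh_tumour replicates 1, 2 and 3 and 0 to 4.73 TPM in the cultures. Clec4d had 13, 187 and 40.5 TPM in Tfh_tumour and 0.409 to 1.65 TPM in the cultures. Clec4e had 23.1, 114 and 39.9 TPM in Tfh_tumour and 0.67 to 2.41 TPM in the cultures. All 3 Tfh_tumour libraries stood far above every culture, replicate 1 included. Log2 fold changes against Tfh_WT were 3.95 ± 0.49 for Clec4n (limma adjusted p = 0.0025), 4.36 ± 0.66 for Clec4d (0.00565) and 4.01 ± 0.45 for Clec4e (0.00131). Clec7a, the β-glucan receptor Dectin-1, whose promoter is shown above, had 24.6, 251 and 56.5 TPM in Tfh_tumour and 0.338 to 2.44 TPM in the cultures, a log2 fold change of 4.44 ± 0.60 against Tfh_WT (limma adjusted p = 0.00369). Msr1, the class A scavenger receptor, had 10.9, 63.6 and 20.6 TPM in Tfh_tumour and 0.416 to 2.92 TPM in the cultures (3.57 ± 0.55, 0.00634). These 5 genes were called in all 3 Tfh_tumour comparisons, and the calls against Tfh_WT were kept with each library left out in turn.

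Cd14, the co-receptor for bacterial lipopolysaccharide, had 3.73, 88.5 and 18.7 TPM in Tfh_tumour replicates 1, 2 and 3. No culture exceeded 1.61 TPM. It was called against Tfh_WT (log2 fold change 3.45 ± 0.75, limma adjusted p = 0.0346), but leaving out any 1 of the 6 libraries other than Tfh_tumour replicate 1 took the adjusted p to between 0.0557 and 0.147. The receptor genes Mrc1 and Trem2 were low, at no more than 5.37 TPM in any library. Mrc1, the mannose receptor, had 0.842, 5.37 and 1.6 TPM in Tfh_tumour and 0.0457 to 1.05 TPM in the cultures. Trem2, a lipid-sensing receptor, had 1.7, 4.6 and 2.68 TPM in Tfh_tumour and 0.515 to 4.7 TPM in the cultures. Both overlapped the Tfh_OTII and Tfh_WT libraries, and neither was called against them (log2 fold changes 0.30 to 0.86, limma adjusted p = 0.184 to 0.658). Against Th1_WT both were called as deposited and neither after scaling (Mrc1 0.93 ± 0.38, adjusted p = 0.102; Trem2 0.53 ± 0.33, 0.287), and both calls were lost without Tfh_tumour replicate 2 (0.0583 and 0.0874); that of Trem2 was also lost without Th1_WT replicates 2 (0.0555) and 3 (0.0511).

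Of 10 lysozymes, lysosomal and pore-forming proteins, 4 were called higher in Tfh_tumour against Tfh_WT (background 1.15%) and 6 against Tfh_OTII (7.97%). Against Th1_WT, 10 were called higher as deposited (49.3%) and 6 after scaling (10.9%). Lyz2, the lysozyme of macrophages and neutrophils (chr10, 117277331 to 117282321, minus strand), had 34.1, 309 and 82 TPM in Tfh_tumour replicates 1, 2 and 3. It had 3.08 to 10.6 TPM in Tfh_OTII, 2.23 to 4.89 TPM in Tfh_WT and 0.206 to 0.855 TPM in Th1_WT. Tfh_tumour did not overlap any of them, and the log2 fold change against Tfh_WT was 4.44 ± 0.63 (limma adjusted p = 0.00423), a call kept without each library in turn. Its neighbour Lyz1, the lysozyme of Paneth cells of the gut (chr10, 117287797 to 117292868, minus strand), had 1.51, 2.09 and 3.5 TPM in Tfh_tumour and 0 to 2.2 TPM in the cultures. Lyz1 was the 1 gene of the 36 whose highest Tfh_tumour library was not replicate 2. Of the 31-base stretches of Lyz1, 34.2% also occur in Lyz2, so that the split of reads between them is uncertain. Mpeg1, the pore-forming protein perforin-2, had 11.4, 139.6 and 37.9 TPM in Tfh_tumour and 0.0879 to 1.37 TPM in the cultures (4.49 ± 0.62, adjusted p = 0.00401 against Tfh_WT). Its call against Tfh_WT, too, was kept without each library in turn. Cd68, a lysosomal membrane protein of macrophages, had 10.8, 130.3 and 34 TPM in Tfh_tumour and 2.22 to 5.34 TPM in the cultures.

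Of the protease genes, Ctss, an endosomal cathepsin of antigen-presenting cells, had 118, 768 and 187 TPM in Tfh_tumour replicates 1, 2 and 3. It had 35.5 to 37.1 TPM in Tfh_OTII, 41.7 to 51.4 TPM in Tfh_WT and 14.6 to 29.9 TPM in Th1_WT. Ctss was called against Tfh_WT (log2 fold change 2.42 ± 0.51, limma adjusted p = 0.0291), as was Cd68 (2.92 ± 0.62, 0.029). Both calls were lost without Tfh_tumour replicate 3 and without each Tfh_WT library, with adjusted p between 0.0585 and 0.142. Ctsb, cathepsin B, had 36.4, 271 and 79.3 TPM in Tfh_tumour, 33 to 35.8 TPM in Tfh_OTII and 32.7 to 37.2 TPM in Tfh_WT. Tfh_tumour replicate 1 thus lay within the range of Tfh_WT, and Ctsb was not called against either Tfh culture (1.39 ± 0.50, adjusted p = 0.0828 against Tfh_OTII; 1.37 ± 0.50, 0.214 against Tfh_WT). Ctsz, cathepsin Z, had 41.4, 131 and 54.9 TPM in Tfh_tumour and 17.7 to 49.1 TPM in the cultures, the highest of which was Th1_WT replicate 3. Its call against Tfh_OTII (1.29 ± 0.40, adjusted p = 0.0474) was lost without any 1 library other than Tfh_tumour replicate 1, with adjusted p between 0.0701 and 0.164, and its difference from Th1_WT was 1.18 ± 0.40 as deposited and -0.002 after scaling. Against Th1_WT its call was also lost without Tfh_tumour replicate 2 (0.119) and Th1_WT replicates 1 (0.115) and 2 (0.0709).

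Ctsl, cathepsin L, had 9.71, 63.6 and 9.21 TPM in Tfh_tumour replicates 1, 2 and 3 and 2.36 to 7.03 TPM in the cultures. Replicates 1 and 3 were alike here, unlike in most of the list, and 28.2% of the 31-base stretches of Ctsl occur in other genes. Lgmn, the asparagine-specific protease legumain, had 22, 126 and 31.9 TPM in Tfh_tumour, 2.81 to 5.11 TPM in Tfh_OTII, 6.98 to 11.4 TPM in Tfh_WT and 5.38 to 16.8 TPM in Th1_WT. It was called against Tfh_OTII (3.22 ± 0.54, limma adjusted p = 0.00177) and missed the threshold against Tfh_WT (2.18 ± 0.54, 0.0581). Plbd1, a lysosomal phospholipase-like protein of myeloid cells, had 2.03, 58.2 and 12 TPM in Tfh_tumour and 0 to 3.14 TPM in the cultures. Ctsl, Ctsb and Plbd1 were called against Th1_WT as deposited. After scaling Plbd1 kept that call (2.48 ± 0.73, adjusted p = 0.0332), whereas Ctsl (1.09 ± 0.50, 0.145), Ctsb (1.09 ± 0.46, 0.117) and Lgmn (0.82 ± 0.47, 0.247) did not.

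Of 6 complement, lipid transport and matrix genes, 1 was called higher in Tfh_tumour against Tfh_WT (background 1.15%) and 3 against Tfh_OTII (7.97%). Against Th1_WT, 5 were called higher as deposited (49.3%) and 3 after scaling (10.9%). C1qa, C1qb and C1qc encode the chains of C1q, the first component of the classical complement pathway, and lie together on chromosome 4 between 136880129 and 136898803 (GRCm38). C1qa had 0.658, 6.1 and 1.06 TPM in Tfh_tumour replicates 1, 2 and 3 and 0 to 0.799 TPM in the cultures. C1qb had 1.09, 13.7 and 0.838 TPM in Tfh_tumour and 0 to 0.663 TPM in the cultures. C1qc had 0.697, 6.98 and 2.25 TPM in Tfh_tumour and 0 to 2.67 TPM in the cultures. Only Tfh_tumour replicate 2 held all 3 chains above 3 TPM, and its C1qb level was 16.4 times that of replicate 3. Neither C1qa, C1qb nor C1qc was called against Tfh_OTII or Tfh_WT (limma adjusted p = 0.0774 to 0.599), and none of them against Th1_WT after scaling (0.101 to 0.345). As deposited C1qa and C1qc were called against Th1_WT (1.39 ± 0.45 and 1.54 ± 0.54). The C1qa call was lost without Th1_WT replicates 2 (0.0688) and 3 (0.0568), and the C1qc call without any 1 library other than Tfh_tumour replicate 1 (0.0574 to 0.135).

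Apoe, the lipid carrier apolipoprotein E, had 11.6, 99.2 and 27.4 TPM in Tfh_tumour replicates 1, 2 and 3. The Tfh_OTII and Tfh_WT libraries held 5.28 to 6.95 TPM and the Th1_WT libraries 1.44 to 3.18 TPM. Spp1, the secreted matrix protein osteopontin (chr5, 104435118 to 104441050, plus strand), had 20.8, 359 and 69.9 TPM in Tfh_tumour, 1.87 to 2.63 TPM in Tfh_OTII, 2.76 to 4.83 TPM in Tfh_WT and 0 to 0.228 TPM in Th1_WT. Thbs1, the matrix protein thrombospondin-1, had 3.92, 491 and 103 TPM in Tfh_tumour and 0.0837 to 1.91 TPM in the cultures. It had the largest spread of the 36 genes, with replicate 2 at 125 times the level of replicate 1. Spp1 was called against Tfh_WT (log2 fold change 4.21 ± 0.69, limma adjusted p = 0.00923), a call lost without Tfh_WT replicates 1 (0.0577) and 2 (0.0563). Apoe (2.18 ± 0.54, 0.0579) and Thbs1 (4.57 ± 1.11, 0.0536) missed the threshold against Tfh_WT as deposited and passed it after scaling (0.0473 and 0.0482). All 3 were called against Tfh_OTII and Th1_WT under both scalings. Spp1 shares 14.3% of its 31-base stretches with an overlapping gene model, Gm42793.

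Of 6 inflammatory and antimicrobial effectors, 4 were called higher in Tfh_tumour against Tfh_WT (background 1.15%) and 5 against Tfh_OTII (7.97%). Against Th1_WT, 6 were called higher as deposited (49.3%) and 5 after scaling (10.9%). Il1b, which encodes the cytokine IL-1β (chr2, 129364570 to 129371139, minus strand), had 22.2, 994 and 170.4 TPM in Tfh_tumour replicates 1, 2 and 3. It had 1.01 to 4.06 TPM in Tfh_OTII, 3.18 to 4.37 TPM in Tfh_WT and 0 to 4.7 TPM in Th1_WT. Il1rn, the natural antagonist of the IL-1 receptor (chr2, 24336853 to 24351494, plus strand), had 32.6, 808 and 178 TPM in Tfh_tumour. The cultures held 0.889 to 5.92 TPM in Tfh_OTII, 3.74 to 7.33 TPM in Tfh_WT and 0.997 to 2.28 TPM in Th1_WT. Cytokine and antagonist thus followed the same order of libraries, with replicate 1 lowest and still above every culture. Log2 fold changes of Il1b were 5.08 ± 1.01 against Tfh_WT (limma adjusted p = 0.0216), 5.67 ± 1.01 against Tfh_OTII (0.00257) and 5.88 ± 1.01 against Th1_WT (0.000565; 5.06 ± 1.02 after scaling). Those of Il1rn were 4.72 ± 0.84 (0.013), 5.52 ± 0.84 (0.000931) and 6.06 ± 0.84 (0.000146; 5.14 ± 0.76 after scaling). Against Tfh_WT the calls of both were lost without Tfh_tumour replicate 3 (0.076 for Il1b and 0.0531 for Il1rn) and without Tfh_WT replicates 1 (0.0967 and 0.0618) and 2 (0.109 and 0.0775), and that of Il1b also without Tfh_WT replicate 3 (0.0689).

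Acod1, whose enzyme makes the antimicrobial metabolite itaconate, had 15.1, 169.6 and 38 TPM in Tfh_tumour replicates 1, 2 and 3 and 0.372 to 1.69 TPM in the cultures. Its log2 fold change was 4.55 ± 0.62 against Tfh_WT (limma adjusted p = 0.00369), 4.57 ± 0.62 against Tfh_OTII (0.000479) and 4.51 ± 0.62 against Th1_WT (0.000146), and all 3 calls were kept without each library in turn. Cybb, the catalytic chain of the phagocyte NADPH oxidase, had 20.8, 82.2 and 30.1 TPM in Tfh_tumour and 1.88 to 8 TPM in the cultures. Its call against Tfh_WT (2.67 ± 0.50, 0.0165) was lost without Tfh_WT replicates 1 (0.0905), 2 (0.0694) and 3 (0.0539). Arg1 and Nos2, enzymes that compete for arginine and are often used to separate polarised macrophage states, were both low. Arg1 had 7.65, 20.8 and 10.7 TPM in Tfh_tumour and 1.73 to 6.64 TPM in the cultures. Nos2 had 1.74, 7.62 and 2.93 TPM in Tfh_tumour and 0.227 to 1.3 TPM in the cultures. Each was above all cultures in every Tfh_tumour library, and neither was called against Tfh_WT as deposited (Arg1 1.69 ± 0.42, limma adjusted p = 0.0579; Nos2 1.39 ± 0.38, 0.083). Arg1 passed the threshold against Tfh_WT after scaling (0.0322). Its call against Tfh_OTII (1.56 ± 0.42, 0.0239) was lost without Tfh_tumour replicates 2 (0.0938) and 3 (0.0508) and Tfh_OTII replicates 2 (0.0773) and 3 (0.112).

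Across settings, 19 genes were called higher in all 3 Tfh_tumour comparisons as deposited. With scaling, without Tfh_tumour replicate 2, and with both changes together, 12 genes were called in every one of the 12 resulting fits: Spi1, Clec4n, Clec4d, Clec4e, Clec7a, Msr1, Lyz2, Mpeg1, Ctss, Spp1, Il1rn and Acod1. With each library left out in turn, 8 of the 19 calls against Tfh_WT, 24 of the 26 against Tfh_OTII and 30 of the 35 against Th1_WT as deposited were kept throughout. Of the 12 genes, Spi1, Ctss, Spp1 and Il1rn lost the call against Tfh_WT without some single libraries. How many of all tested genes were called in all 3 comparisons, in all 12 fits or without each library in turn was not counted. The levels of Lyz2, Cebpb, Csf1r and Ctsb are also uncertain, since 32.8%, 19.6%, 15% and 13% of their 31-base stretches occur in other annotated genes. These shares were 68.3% for Itgam, 34.2% for Lyz1, 28.2% for Ctsl and 14.3% for Spp1. How strand was handled is not given in the sources used here. C1qb was called in no Tfh_tumour comparison as deposited. Mrc1, Trem2, Lyz1, Plbd1, Ctsb, Ctsl, C1qa, C1qc and Nos2 were called against Th1_WT alone, and whether their difference from Th1_WT differs from that to the Tfh cultures was not tested.

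Between Tfh_tumour libraries, 33 of the 36 genes followed the order replicate 2, then 3, then 1, as did 29.6% of all tested genes. Dividing each value by the summed T cell genes of its library left this order in 33 of 36, against 11.8% of all genes. Replicate 2 was the highest of the 3 for 35 genes, against 44.5% of all genes. It was at least 2 times as high as each other Tfh_tumour library for 33 genes, which held for 9.75% of all genes. The ratio of replicate 2 to replicate 3 had a median of 3.52 over the 36 genes and ranged from 0.597 for Lyz1 to 16.4 for C1qb, with a median of 1.1 over all genes. The ratio of replicate 2 to replicate 1 had a median of 7.74 and ranged from 1.39 for Lyz1 to 125 for Thbs1, with a median of 1.19 over all genes. By role, regulators and surface molecules had 2.96 times the sum of replicate 3 in replicate 2, inflammatory effectors 4.85 times, and complement, lipid transport and matrix genes 4.78 times. Relative to replicate 1 the same groups had 6.58, 20.8 and 25.2 times its sum.

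**Figure D4:**
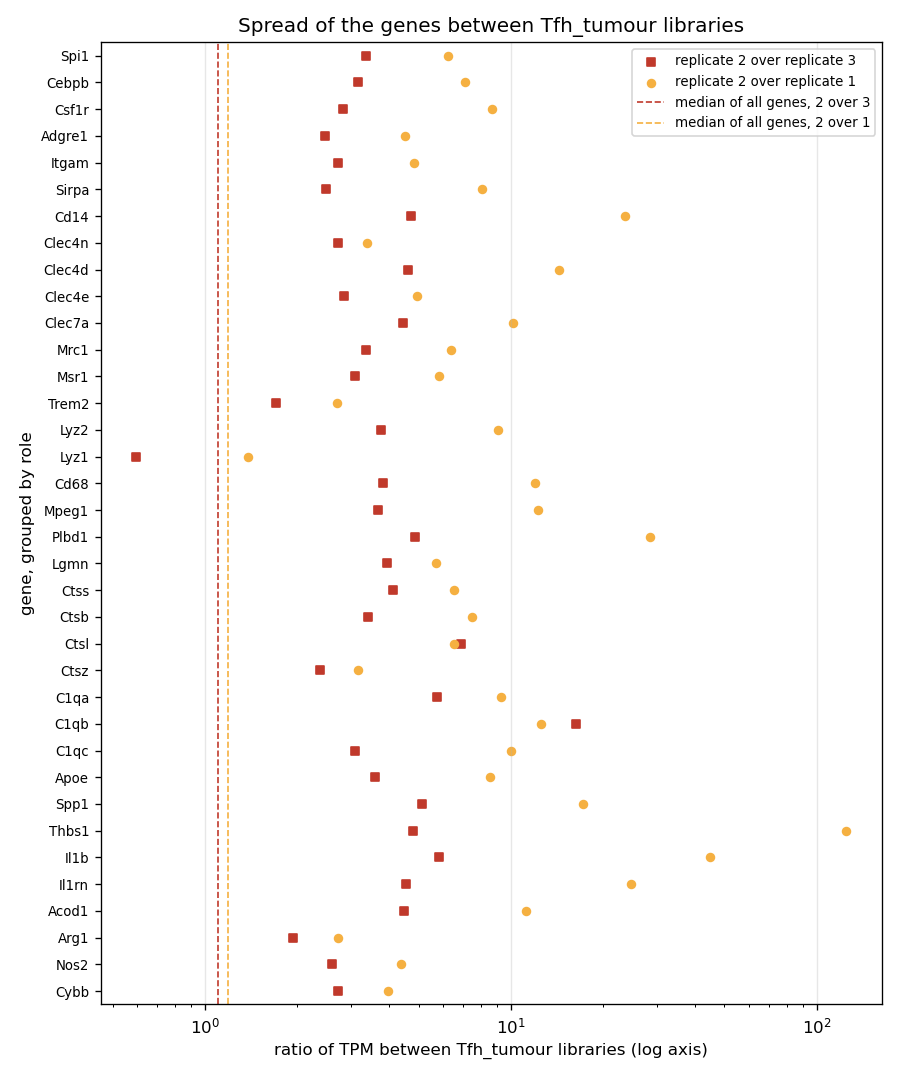
Ratio of TPM in Tfh_tumour replicate 2 to replicate 3 (squares) and to replicate 1 (circles) for each of the 36 genes (rows) on a log axis, with dashed lines at the medians of all tested genes. Points lie to the right of both lines except those of Lyz1 against replicate 3, and Thbs1 reaches 125.

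Other marker lists moved with these genes in part. Of 40 further myeloid genes, 10 were called higher in Tfh_tumour against Tfh_WT (11 after scaling, 8 without Tfh_tumour replicate 2) and none lower. Against Tfh_OTII 24 were called higher (19 without Tfh_tumour replicate 2), and against Th1_WT 35 as deposited and 20 after scaling. The shares of all genes called higher were 1.15% against Tfh_WT, 7.97% against Tfh_OTII, and 49.3% against Th1_WT as deposited and 10.9% after scaling. Of the 40, 32 followed the order of replicates 2, 3 and 1. The 10 were the monocyte chemokine genes Ccl2 and Ccl7, the Fc receptor genes Fcer1g and Fcgr1, the signalling adaptor Tyrobp, the monocyte antigen Ly6c2, the haem-degrading enzyme Hmox1, the inhibitory receptor Pirb, Gpnmb and the coagulation factor F10. Their log2 fold changes ran from 1.59 ± 0.33 for F10 to 4.64 ± 0.69 for Ccl2. Ccl2 had 11, 176 and 33.1 TPM in Tfh_tumour replicates 1, 2 and 3 and 0 to 1.1 TPM in the cultures. Ly6c2 had 7.79, 246 and 43.5 TPM in Tfh_tumour and 2.29 to 7.69 TPM in the cultures, and Ccr2, the chemokine receptor by which monocytes leave the bone marrow, had 14, 332 and 68.1 TPM in Tfh_tumour and 1.33 to 12.5 TPM in the cultures. Ccr2 was not among the 10, and 30 of the 40 were not called against Tfh_WT. Of these, Cd163 had 1.7, 1.09 and 1.07 TPM in Tfh_tumour and 0.299 to 1.83 TPM in the cultures. Axl had 14.3, 56.1 and 17.9 TPM in Tfh_tumour, with replicates 1 and 3 below every Tfh culture, and 3.45 to 32.7 TPM in the cultures.

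The 14 neutrophil genes summed to 75.2, 778 and 187 TPM in Tfh_tumour replicates 1, 2 and 3, 26 to 74.6 TPM in Tfh_OTII, 37.9 to 60.8 TPM in Tfh_WT and 14 to 14.7 TPM in Th1_WT. Of 12 tested, 2 were called higher against Tfh_WT, Il1r2 and Mmp8. Against Tfh_OTII 2 were called higher, and against Th1_WT 11 as deposited (background 49.3%), 5 without Tfh_tumour replicate 2 (40.8%) and 3 after scaling (10.9%). S100a8 and S100a9 of this list were at 0 and 0.394 TPM in Tfh_tumour replicate 1, at 115 and 300.2 TPM in replicate 2 and at 22.1 and 36.8 TPM in replicate 3. The neutrophil antigen gene Ly6g had 0.739, 3.94 and 1.99 TPM in Tfh_tumour and 0 to 2.67 TPM in the cultures. The 14 dendritic cell genes summed to 201, 799 and 339 TPM in Tfh_tumour and 43.5 to 164 TPM in the cultures, and 3 were called higher against Tfh_WT, the antigen presentation genes Cd74, H2-Aa and H2-Ab1. Against Tfh_OTII 7 dendritic cell genes were called higher and 1 lower, and against Th1_WT 9 were called higher as deposited (background 49.3%) and 3 after scaling (10.9%). The 12 NK and CD8 T cell genes summed to 211, 1792 and 433 TPM in Tfh_tumour and 48.3 to 668 TPM in the cultures, and the granzyme gene Gzmb alone had 99.2, 1601 and 332 TPM in Tfh_tumour and 14.9 to 594 TPM in the cultures. Of 10 NK and CD8 T cell genes tested, 0 were called higher and 1 lower against Tfh_WT, 2 higher and 2 lower against Tfh_OTII, and 6 higher and 1 lower against Th1_WT as deposited. In that last comparison 49.3% of all genes were called higher. B cell genes summed to 98, 84.7 and 82.9 TPM in Tfh_tumour and 19.8 to 69 TPM in the cultures, and epithelial genes to 7.31, 18.8 and 15.2 TPM in Tfh_tumour and 1.71 to 20.6 TPM in the cultures. All 3 Tfh_tumour libraries thus lay above every culture in their B cell sum, with replicate 2 between the other two. Of the 12 B cell genes, 0 were called against Tfh_WT, 6 higher against Tfh_OTII (5 after scaling and 5 without Tfh_tumour replicate 2), and 5 higher against Th1_WT as deposited. After scaling, 2 were higher and 2 lower against Th1_WT. Of all genes, 7.97% were called higher against Tfh_OTII, and 49.3% against Th1_WT as deposited and 10.9% after scaling. No gene of the epithelial, endothelial, erythroid or mast cell lists was called against Tfh_WT, and against Tfh_OTII 1 endothelial gene was called higher. The fibroblast list holds Thy1, which T cells also express and which is in the T cell list. Without Thy1 the other 10 fibroblast genes summed to 31.5, 27.7 and 23.5 TPM in Tfh_tumour and 6.14 to 33.5 TPM in the cultures. Of 11 fibroblast genes 10 were tested, Thy1 included, and against Tfh_WT 0 were called higher and 1 lower, Lum (limma adjusted p = 0.0354), a call lost after scaling (0.0687) and without Tfh_tumour replicate 2 (0.103). Against Tfh_OTII 1 was called higher and 1 lower. The part of neutrophil, dendritic or other cells in the levels of the 36 genes was not tested, and the differences between tumour and culture in site, sorting and time cannot be told apart.

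**Figure D5:**
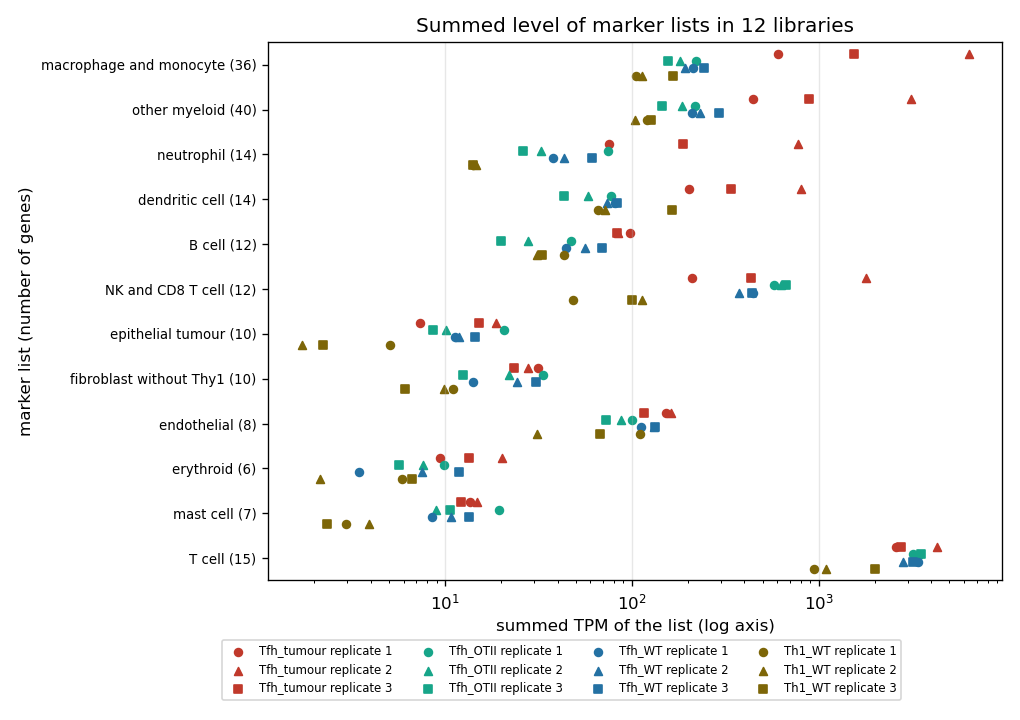
Summed TPM (log axis) of the 36 genes and of 11 marker lists (rows, with the number of genes, the fibroblast list without Thy1) in the 12 libraries; color gives the group and marker shape the replicate. Tfh_tumour replicate 2 is highest for the macrophage and monocyte, other myeloid, neutrophil, dendritic cell, and NK and CD8 T cell lists. It is also highest for the T cell, endothelial and erythroid lists, at 1.56, 1.39 and 1.5 times the sum of replicate 3. The T cell sums of the Tfh libraries lie within 2592 to 4268 TPM.

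Few of the 36 genes were called between cultures in the fit of all libraries, and Tfh_OTII was not compared with Th1_WT. That fit takes the spread of a gene from all 12 libraries, Tfh_tumour included, so few calls do not show that the cultures were alike. With only the 2 groups fitted, 28 genes were tested. Then 1 was called lower in Tfh_OTII against Tfh_WT and 10 higher in Tfh_WT against Th1_WT, and the shares of all genes were not computed. In Tfh_OTII against Tfh_WT, limma called 0 of 36 higher (background 0.987%) and 0 lower (1.39%), with a median log2 fold change of -0.08 against 0.05 over all genes. In raw TPM, Ctsl lay higher in all 3 Tfh_OTII libraries (1 of 36, background 21%), and Cebpb, Itgam, Clec4e, Clec7a, Lgmn, Ctss and Spp1 lay lower (7 of 36, 8.1%). The lowest log2 fold changes were -1.04 ± 0.54 for Lgmn (limma adjusted p = 0.463) and -1.01 ± 0.50 for Itgam (0.422), and the highest was 0.81 ± 0.63 for Lyz2 (0.686). In Tfh_WT against Th1_WT, Cebpb (1.42 ± 0.52, limma adjusted p = 0.045), Itgam (2.37 ± 0.50, 0.00254) and Spp1 (1.96 ± 0.69, 0.038) were called higher as deposited, 3 of 36 where 41.1% of all genes were, and 0 were called lower, where 0.511% were. After scaling Itgam alone was called (1.64 ± 0.46, 0.0306; background 9.15%), and with any 1 of the 6 libraries left out 1 gene was called. The median over the 36 was 0.55 as deposited, against 0.78 over all genes, and 0.05 after scaling, against 0.09. In raw TPM, 15 of 36 lay higher in all 3 Tfh_WT libraries (background 55.6%), and Mpeg1 and C1qb lay lower (2 of 36, 0.738%).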

How the data were processed

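The authors deposited 1 table of TPM values per library, already normalized so that each library sums to 1000000. The reads were made from stranded total RNA depleted of ribosomal RNA, per the labels' protocols, and the submitters' processing notes name kallisto and the build mm10. The kallisto version, strand setting and annotation are not given in the sources used here. The files used here hold no counts, so depth is unknown and no counting interval is given.

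Values were read with Python 3.11.15 and pandas 2.3.3 (numpy 2.4.6, matplotlib 3.10.9), with groups taken from the labels. log2(TPM + 1) was fitted with limma 3.58.1 in R 4.3.3, with 4 group means over 12 libraries and a variance trend with level. Genes with a group mean of at least 1 TPM were tested (23308), and p-values were Benjamini-Hochberg adjusted over all of them in each of 5 comparisons, with a threshold of 0.05. A fold change on this scale understates the change of low genes. The fit was tested on simulated data. Scaled values were TPM divided by median-of-ratios size factors from 17585 genes. Because TPM add up to a fixed total, a group of very high genes lowers all others.

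Positions and 31-base stretches shared between genes came from GENCODE M21 (GRCm38), whose names matched 97.8% of the 35492 symbols, and promoters from RefSeq (GRCm38.p6). The 36 genes and all marker lists were chosen with earlier results of these data known. All 36 genes are named. Of the other myeloid genes called against Tfh_WT, the 6 highest and 4 lowest fold changes are named, of the T cell list Cd3e, Cd4 and Ptprc, and of the remaining lists up to 2 genes of the highest level. Ccr2, Cd163, Axl, Lum, S100a8, Ly6g, Mmp8, Il1r2, Cd74, H2-Aa and H2-Ab1, and the sort genes Cxcr5 and Pdcd1, were named after their values were seen, where that rule does not give them. Alternatives were trimmed-mean scaling, a pseudocount of 0.1, no filter and a filter at 5 TPM, a fit of only the 2 groups, a replicate block, no variance trend and leaving out each library. Median-of-ratios scaling together with leaving out Tfh_tumour replicate 2 was added after seeing the data.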

Additional observations from a re-analysis of the deposited data

How the results depend on the processing

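The count of the 36 genes called higher in Tfh_tumour against Tfh_WT, 19 as reported, was 9 in a fit of only the 2 groups and 8 to 29 with 1 library left out. It was 15 to 23 without a filter, with one at 5 TPM, with a pseudocount of 0.1, without the variance trend and under both scalings. Shares of all genes called were computed only as deposited, with median-of-ratios scaling and without Tfh_tumour replicate 2. The count with 1 library left out was 24 to 31 against Tfh_OTII and 30 to 36 against Th1_WT, and 22 against Th1_WT with median-of-ratios scaling and without Tfh_tumour replicate 2. In Tfh_OTII against Tfh_WT, 1 gene was called lower in a fit of only the 2 groups. In Tfh_WT against Th1_WT, the 3 genes called higher became 1 with either scaling, 1 without a filter, 5 with a pseudocount of 0.1, 10 in a fit of only the 2 groups and 1 to 1 with 1 library left out. Ctsz in Tfh_tumour against Th1_WT changed sign, with log2 fold changes of -0.0021 with median-of-ratios scaling, -0.015 with trimmed-mean scaling and -0.41 with median-of-ratios scaling and without Tfh_tumour replicate 2, and the cause was not tested. The mean summed TPM with 1 library left out was 1071 to 3936 in Tfh_tumour, 168 to 199.8 in Tfh_OTII, 203 to 228 in Tfh_WT and 109 to 139.9 in Th1_WT. With median-of-ratios scaling it was 151 in Tfh_OTII, 183 in Tfh_WT and 227 in Th1_WT, and without the most abundant gene it was 148 in Tfh_OTII and 169 in Tfh_WT.

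Libraries with the same replicate number did not deviate together over all tested genes (correlations of -0.386 to 0.115). This cannot exclude that the numbers pair the samples, since larger differences between libraries could hide a small shared effect. With a replicate block, 16 genes were called higher in Tfh_tumour against Tfh_WT, 25 against Tfh_OTII and 35 against Th1_WT, 0 in Tfh_OTII against Tfh_WT and 2 in Tfh_WT against Th1_WT. Low genes such as C1qa, C1qb, Lyz1, Mrc1 and Nos2 are limited by an unknown depth.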
